A study of Mus musculus with 12 samples.

Results

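The beta cell identity transcription factors described here are 9 genes, Pdx1, Mafa, Nkx6-1, Nkx2-2, Foxa2, Pax6, Isl1, Neurod1 and Rfx6, of the 19938 genes that a probe set names alone on the array. A member is the probe set whose annotation names that gene alone, and where a gene had several, the one with the highest mean over the 12 arrays was to be used. Each of the 9 factors had exactly 1 such probe set, so no choice between probe sets was needed. RNA came from whole islets of Langerhans, the hormone-producing cell clusters of the pancreas, of adult 129Sv mice. The 4 groups, with 3 arrays each, were P9.5 pregnant Prlr-/- mice, P9.5 pregnant Prlr+/+ mice, non-pregnant (NP) Prlr-/- mice and NP Prlr+/+ mice. Prlr encodes the prolactin receptor, through which prolactin and placental lactogen signal, and the Prlr-/- mice lack it in every tissue. According to the study's methods, pregnant Prlr-/- mice also carried a progesterone pellet, because they are sterile without it. The effect of the pellet and that of the genotype therefore cannot be told apart at P9.5, and the same holds for pellet and pregnancy in Prlr-/- mice.

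A beta cell keeps its identity through a small network of DNA-binding proteins that switch on the insulin genes and each other. Pdx1, Mafa and Neurod1 bind the insulin promoter directly, Nkx6-1 and Nkx2-2 hold the programmes of other islet cells silent, and Foxa2 opens chromatin for the rest. Pax6, Isl1, Neurod1 and Rfx6 are shared with the other hormone-producing cells of the islet. Islets adapt to pregnancy with more beta cells and more insulin secretion.

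The values are log2 expression values from robust multichip analysis, rounded to steps of 0.1, and array medians over all 35511 probe sets were 5.7 to 5.9. The tissue was checked against its markers over the 12 arrays: Ins2, an insulin gene, was at 10.6 to 11 and Iapp, the amyloid peptide secreted with insulin, at 12.3 to 12.6, whereas 3 Y-linked genes, a guide to the background in female mice, averaged 3.5 to 4.03 per array. All 9 factors lay well above that background, between 7.2 (the lowest Foxa2 value) and 10.3 (the highest Pax6 value). Their mean values stood at the 81.0 (Foxa2) to 97.9 (Pax6) percentile of all probe sets. In Prlr+/+ P9.5 replicate 2, Xist, which female cells transcribe from their inactive X chromosome, was at 3.8, against 10 to 10.7 in the other 11 arrays, while its Y-linked genes averaged 3.77. Whether this array holds the sample that its label names is therefore in doubt, and the calls of the factors in Prlr+/+ islets and between the P9.5 genotypes are given with and without it. In Prlr-/- NP replicate 1, the mean of 24 acinar cell markers was 10.98, the highest of the 12 arrays, and each of the 9 factors was at the lowest value of its group or tied for it. The labels call the arrays biological replicates without naming animals, so p-values measure the spread between these arrays, and the number of arrays limits the precision. In islet RNA, fewer beta cells and less of a transcript per beta cell cannot be told apart.

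The sequences before the start sites of 3 factors that were called in Prlr+/+ islets are shown because these factors differed in direction, Neurod1 higher and Nkx6-1 and Nkx2-2 lower at P9.5. They come from RefSeq (GRCm38.p6), which held 11 windows of 300 bases, 250 before and 50 after a start site, for 8 of the 9 factors, and none for Mafa. The 250 bases before the start are printed 5′ to 3′ on the gene's strand, which is the minus strand for all 3 genes. Capitals mark the E-box, CANNTG, the kind of site that basic helix-loop-helix proteins such as Neurod1 bind. The Neurod1 stretch, chr2:79456637-79456886, held 1 E-box, the Nkx2-2 stretch, chr2:147186403-147186652, held 3 and the Nkx6-1 stretch, chr5:101664712-101664961, held 0.
Neurod1: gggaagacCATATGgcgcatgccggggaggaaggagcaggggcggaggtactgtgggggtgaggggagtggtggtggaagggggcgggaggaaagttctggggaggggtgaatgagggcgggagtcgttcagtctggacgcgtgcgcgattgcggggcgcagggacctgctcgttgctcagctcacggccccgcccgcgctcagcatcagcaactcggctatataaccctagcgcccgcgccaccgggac
Nkx2-2: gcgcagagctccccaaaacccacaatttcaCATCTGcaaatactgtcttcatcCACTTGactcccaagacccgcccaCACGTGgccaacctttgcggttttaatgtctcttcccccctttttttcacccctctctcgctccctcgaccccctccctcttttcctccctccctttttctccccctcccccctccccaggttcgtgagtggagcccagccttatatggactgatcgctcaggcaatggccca
Nkx6-1: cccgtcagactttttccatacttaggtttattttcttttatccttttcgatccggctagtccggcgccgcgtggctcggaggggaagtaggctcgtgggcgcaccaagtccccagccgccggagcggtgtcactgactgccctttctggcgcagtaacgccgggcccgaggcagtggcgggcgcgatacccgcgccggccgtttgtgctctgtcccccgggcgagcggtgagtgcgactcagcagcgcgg

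Over both strands, 7 of the 11 windows of the factors held an E-box, against 72.3% of the 32851 promoter windows in the table. The homeodomain core TAAT, recognised by proteins of the Pdx1, Nkx6-1 and Isl1 kind, was in 7 of the 11 windows and in 58.0% of all windows. The STAT motif TTCNNNGAA, the letters bound by the factors downstream of the prolactin receptor, was in 0 of the 11 windows and in 8.3% of all windows. The forkhead motif TGTTTAC was in 0 of the 11 windows and in 3.65% of all windows. The GC content of the windows was 66.7% for Neurod1, 67.3% for Nkx6-1 and 59.7% for Nkx2-2, against a median of 52.7% over all windows. These are matches of letters in a fixed window and say nothing about binding.

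The first comparison asked what pregnancy did to the factors in islets with an intact receptor. In Prlr+/+ islets at P9.5, Nkx6-1, Mafa and Nkx2-2 were lower and Neurod1 was higher than in NP islets. These 4 of 9 factors met the call used throughout, a fold change of at least 1.5 and a Benjamini-Hochberg adjusted p under 0.05 over all probe sets in limma, whereas 9.93% of all probe sets were called in this comparison, 5.73% higher and 4.21% lower. That split was 2034 higher and 1494 lower probe sets, and 2634 and 1117 with each array centred on its median. The factors thus moved in both directions within the same islets.

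Nkx6-1, the homeodomain repressor that keeps beta cells from taking the alpha cell programme, was at 9.1, 9.3 and 9.0 in the Prlr+/+ P9.5 arrays, against 9.8, 9.9 and 9.9 in the Prlr+/+ NP arrays. Every P9.5 value lay below every NP value, and the log2 fold change was -0.73 (95% interval -1.03 to -0.43, limma adjusted p = 0.00369), which is 1.66-fold lower. Mafa, the leucine zipper activator of the insulin gene that marks mature beta cells, was at 8.1, 8.2 and 7.7 in P9.5 islets, against 8.8, 8.6 and 8.6 in NP islets. Its groups did not overlap either, and it was 1.59-fold lower (log2 fold change -0.67, standard error (SE) 0.151, limma adjusted p = 0.00938). Nkx2-2, a homeodomain factor needed to form beta cells and to keep them from changing type, was at 8.8, 9.0 and 9.0 in P9.5 islets, against 9.2, 9.7 and 9.7 in NP islets. With a log2 fold change of -0.60 (SE 0.15, limma adjusted p = 0.015) it was 1.52-fold lower, close to the fold change minimum.

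Neurod1, the basic helix-loop-helix activator of the insulin gene, went the other way. It was at 9.9, 10.1 and 9.7 in Prlr+/+ P9.5 islets, against 9.2, 9.3 and 9.3 in Prlr+/+ NP islets. The groups were apart by 0.4 at their nearest, and Neurod1 was 1.55-fold higher at P9.5 (log2 fold change 0.63, SE 0.132, limma adjusted p = 0.00624).

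The other 5 factors were not called in Prlr+/+ islets. Isl1, a LIM-homeodomain factor of all islet endocrine cells, was at 9.9, 9.8 and 9.9 in P9.5 islets, against 9.5, 9.3 and 9.5 in NP islets. Foxa2, the forkhead pioneer factor, was at 7.5, 7.4 and 7.2 in P9.5 islets, against 8.0, 7.7 and 7.6 in NP islets. Both had an adjusted p under 0.05 in limma (0.0253 for Isl1 and 0.0301 for Foxa2) but fold changes of 1.35 and 1.32, under the minimum. Pax6, a paired-box factor needed for hormone gene expression, differed by a log2 fold change of 0.20 (limma adjusted p = 0.2). Pdx1, the master regulator of pancreas formation and of the insulin gene, was at 9.6, 9.5 and 9.4 in P9.5 islets, against 9.7, 9.5 and 9.5 in NP islets. Its log2 fold change of -0.07 (95% interval -0.41 to 0.28) and that of Rfx6, a winged-helix factor of endocrine cells, at -0.03 (95% interval -0.40 to 0.33) bound any change to under the fold change minimum. The P9.5 and NP values did not overlap for 7 of the 9 factors, all but Pdx1 and Rfx6, against 32.4% of all probe sets.

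**Figure D1:**
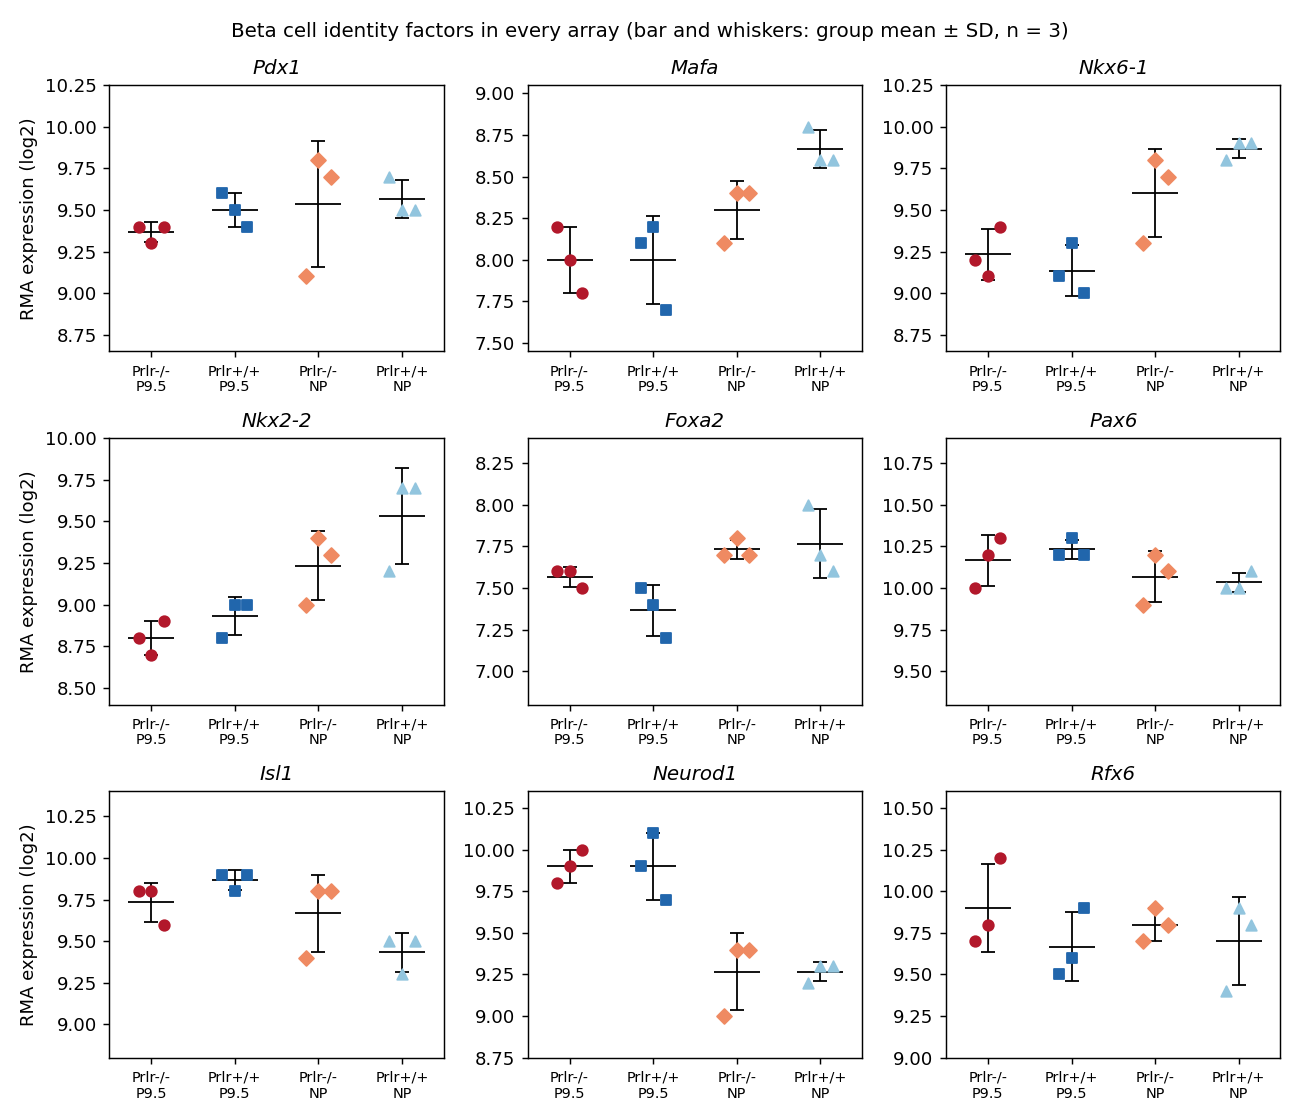
Log2 expression of the 9 factors in every array; each panel is 1 factor, points are arrays of the Prlr-/- P9.5, Prlr+/+ P9.5, Prlr-/- NP and Prlr+/+ NP groups, and bars with whiskers are the mean ± SD (n = 3). The panels do not start at 0 and span different levels; Neurod1 in the P9.5 arrays lies at 9.7 to 10.1, above the NP arrays at 9.0 to 9.4, and the low orange diamond in most panels is Prlr-/- NP replicate 1.

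Single arrays and the scaling decided some of these calls. Nkx2-2 lost its call without Prlr+/+ NP replicate 2 or 3 (log2 fold change -0.52 each) or Prlr+/+ P9.5 replicate 1 (-0.53), Neurod1 without Prlr+/+ P9.5 replicate 2 (0.53) and Mafa without Prlr+/+ P9.5 replicate 3 (-0.52), whereas Nkx6-1 stayed called whichever of the 12 arrays was left out. Without Prlr+/+ P9.5 replicate 2, the array with low Xist, the log2 fold change was -0.82 for Nkx6-1, -0.77 for Mafa and -0.63 for Nkx2-2, all called. Nkx2-2 was not called with each array centred on its median (-0.53), nor Neurod1 after a further quantile normalization of the log2 values (0.52).

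The second comparison asked the same of islets that lack the receptor. In Prlr-/- islets, Neurod1 was the only factor called, higher at P9.5, so 1 of 9 factors was called where 14.5% of all probe sets were, 7.44% higher and 7.09% lower. In probe sets this split was 2641 higher and 2518 lower, and 4835 and 1510 with each array centred on its median. Neurod1 was at 9.8, 9.9 and 10 in Prlr-/- P9.5 islets, against 9.0, 9.4 and 9.4 in Prlr-/- NP islets, 1.55-fold higher at P9.5 (log2 fold change 0.63, SE 0.132, limma adjusted p = 0.00419). The group means were 9.90 ± 0.10 at P9.5 and 9.27 ± 0.23 in NP islets (SD, n = 3 each), and the size of the change was that of the Prlr+/+ islets to the 2 decimals given. Without Prlr-/- NP replicate 1 the log2 fold change of Neurod1 was 0.50 (adjusted p = 0.0165), and without Prlr-/- P9.5 replicate 3 it was 0.58 (adjusted p = 0.0199), which left both below a 1.5-fold change. The call was also lost with array weights (0.54) and after a further quantile normalization (0.48), which called Nkx2-2 lower instead (-0.61, limma adjusted p = 0.0122).

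The 3 factors that were lower in Prlr+/+ islets were not called in Prlr-/- islets. Nkx2-2 was at 8.8, 8.7 and 8.9 at P9.5, against 9.0, 9.4 and 9.3 in NP islets, with groups that did not overlap and a log2 fold change of -0.43 (limma adjusted p = 0.0436), under the fold change minimum. Nkx6-1 was at 9.2, 9.1 and 9.4 at P9.5, against 9.3, 9.8 and 9.7 in NP islets (log2 fold change -0.37, limma adjusted p = 0.0591). Mafa was at 8.2, 8.0 and 7.8 at P9.5, against 8.1, 8.4 and 8.4 in NP islets (log2 fold change -0.30, limma adjusted p = 0.144). For Nkx6-1 and Mafa the values that overlapped with P9.5 islets were those of Prlr-/- NP replicate 1, at 9.3 and 8.1. Without that array the log2 fold change was -0.55 for Nkx2-2 (limma adjusted p = 0.0285) and -0.52 for Nkx6-1 (adjusted p = 0.0141). It was -0.40 for Mafa (adjusted p = 0.099) and -0.38 for Pdx1 (adjusted p = 0.0274). The adjusted p was thus under 0.05 for all of these but Mafa, and every change was under the fold change minimum. Of the others, Pdx1 and Foxa2 had log2 fold changes of -0.17 each, Pax6 and Rfx6 of 0.10 each and Isl1 of 0.07. Groups did not overlap for 3 of the 9 factors, Nkx2-2, Foxa2 and Neurod1, against 41.8% of all probe sets.

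**Figure D2:**
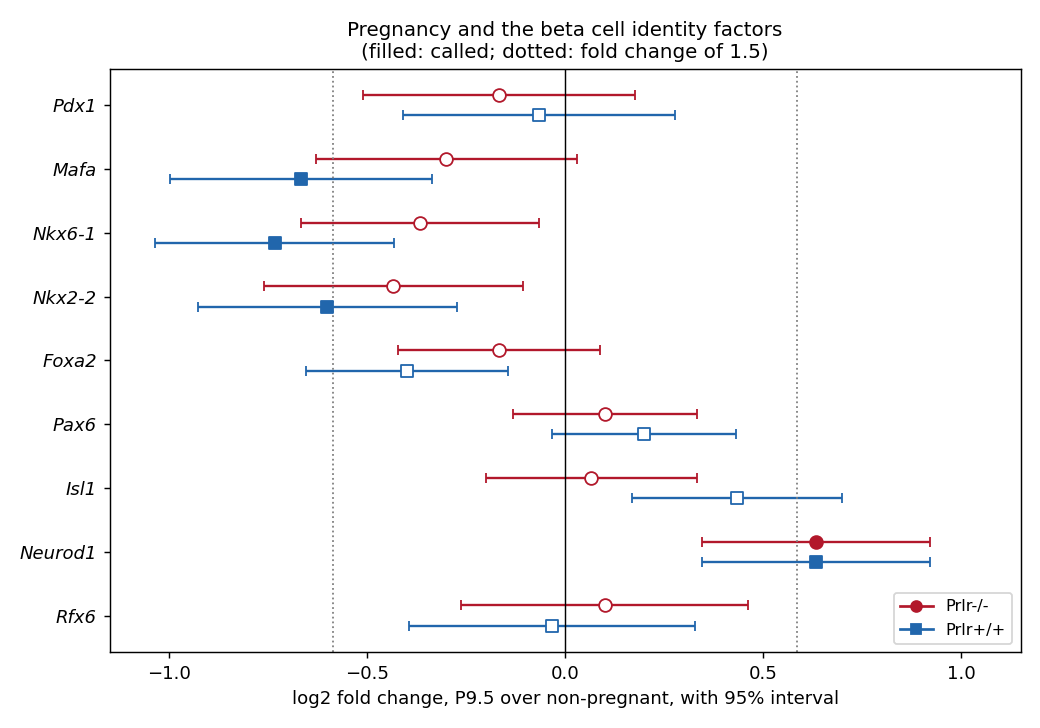
Log2 fold change of each factor at P9.5 over NP, with 95% intervals from limma, in Prlr-/- (red circles) and Prlr+/+ (blue squares) islets; filled markers met the call and dotted lines mark a fold change of 1.5. Neurod1 is to the right in both genotypes at 0.63, and Nkx6-1, Mafa and Nkx2-2 reach from -0.60 to -0.73 in Prlr+/+ islets and from -0.30 to -0.43 in Prlr-/- islets.

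Whether the response to pregnancy differed between the genotypes was tested with the interaction term. None of the 9 factors was called (0 of 9, against 0.0788% of all probe sets), and the unadjusted limma p was under 0.05 for 0, against 9.85% of all probe sets. The interaction was 0.37 for Mafa (95% interval -0.10 to 0.83, limma adjusted p = 0.607), 0.37 for Nkx6-1 (-0.06 to 0.79, adjusted p = 0.569) and 0.17 for Nkx2-2 (-0.30 to 0.63), where a positive value means a smaller decrease in Prlr-/- islets. For Isl1 it was -0.37 (95% interval -0.74 to 0.01, limma adjusted p = 0.513). For Neurod1 it was 0 (95% interval -0.41 to 0.41). Without Prlr-/- NP replicate 1 the interaction was 0.27 for Mafa, 0.22 for Nkx6-1 and -0.50 for Isl1, with limma adjusted p of 0.765, 0.739 and 0.358. Without Prlr+/+ P9.5 replicate 2, the array with low Xist, it was 0.47, 0.45 and -0.40 in the same order, with limma adjusted p of 0.455, 0.432 and 0.455. That 3 factors were called lower in Prlr+/+ islets and not in Prlr-/- islets is therefore not a shown difference between the genotypes, and the intervals leave room for one larger than the fold change minimum in Mafa, Nkx6-1, Nkx2-2, Isl1, Foxa2, Pdx1 and Rfx6.

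Averaged over both genotypes, a contrast chosen after the data were seen, the change at P9.5 rested on 6 arrays against 6. Neurod1 was called higher, with a log2 fold change of 0.63 (SE 0.0933, limma adjusted p = 0.000276), and its 6 P9.5 values of 9.7 to 10.1 all lay above its 6 NP values of 9.0 to 9.4. It was the only one of the 9 factors whose stages did not overlap over both genotypes, where 17.6% of all probe sets had stages apart. The call of Neurod1 in this average depended on the low-Xist array and Prlr-/- NP replicate 1. With both left out, Neurod1 rose by 0.50 (Prlr-/-) and 0.53 (Prlr+/+) on the log2 scale. Both values are under the fold change minimum, and so is any average of them. Nkx6-1 (-0.55, adjusted p = 0.00092), Nkx2-2 (-0.52, adjusted p = 0.0023) and Mafa (-0.48, adjusted p = 0.00359) were under the fold change minimum in this average. The background of this contrast was 11.6% of probe sets called, or 6.72% for higher calls alone, and 45.5% with an adjusted p under 0.05 at any fold change, which 6 of the 9 factors had, the 4 above with Foxa2 (-0.28) and Isl1 (0.25).

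Because 1 array can shift all factors together, each array was also centred on the mean of the 9 factors, as a description without a test and also chosen after the data were seen. On that scale the 6 P9.5 values and the 6 NP values of Neurod1 lay apart, at 0.59 to 0.86 against -0.09 to 0.08. Nkx6-1 lay at -0.11 to 0.17 in the P9.5 arrays, against 0.28 to 0.58 in the NP arrays. Nkx2-2 lay at -0.46 to -0.11 in the P9.5 arrays, against -0.09 to 0.38 in the NP arrays. The stages were thus apart for these 3 of 9 factors on this scale, against 18.5% of all probe sets centred the same way, and overlapped for the other 6. On the log2 values as deposited, Nkx6-1 and Nkx2-2 overlapped between the stages, and since the 9 factors make up the mean that is subtracted, a higher Neurod1 by itself lowers the centred values of the rest.

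Markers of other cell types were followed in the same arrays. Of 24 measured markers of acinar cells, which make digestive enzymes in the pancreas around the islets, 14 were called lower and 1 higher at P9.5 in Prlr-/- islets, and 0 lower and 1 higher in Prlr+/+ islets, with median log2 fold changes of -1.32 and -0.53. Over all probe sets, 7.09% were called lower and 7.44% higher in Prlr-/- islets, and 4.21% and 5.73% in Prlr+/+ islets. The acinar interaction was called for 0 of the 24, and so was the difference between the genotypes at P9.5. The Prlr+/+ median ran from -0.83 to -0.31 with 1 array left out, lowest without replicate 3 and nearest to 0 without replicate 2 of its P9.5 group. With 1 array of the NP Prlr-/- group left out, the lower count in Prlr-/- islets was 0 (replicate 1) or 7 (replicate 3), and with 1 of the P9.5 Prlr-/- group left out it was 21 (replicate 1), 6 (replicate 2) or 0 (replicate 3). The log2 of their summed level was 13.8 to 15.5 in Prlr-/- P9.5 arrays, 14.3 to 15.6 in Prlr+/+ P9.5 arrays, 15.5 to 16.4 in Prlr-/- NP arrays and 15.1 to 15.7 in Prlr+/+ NP arrays, and none of the markers was listed at 0. Of 11 measured markers of the other islet endocrine cells, such as Gcg (glucagon) and Sst (somatostatin), 0 were called in either genotype (1 lower in Prlr+/+ islets without P9.5 replicate 1), and their mean per array was 9.94 to 10.25 over the 12 arrays.

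Of 13 measured endothelial markers, 2 were called higher in Prlr-/- islets at P9.5, Emcn (0.77) and Tek (0.63), and 2 lower in Prlr+/+ islets, Eng and Plvap (-0.67 each), with medians of 0.03 and -0.23. The lower count in Prlr+/+ islets was 3 or 0 when NP replicate 1 or 2 was left out, and 1, 4 or 1 when P9.5 replicate 1, 2 or 3 was. In Prlr-/- islets the higher count was 2 to 3 whichever array was left out, and the interaction was called for 0 of the 13. Of 10 ductal markers, Tspan8 was called higher (1.00) and Muc1 lower (-0.90) in Prlr-/- islets, and Krt7 (-0.80) and Krt8 (-0.60) lower in Prlr+/+ islets, with a median of -0.22 in both. The ductal count in Prlr-/- islets was 2 higher without NP replicate 1 or P9.5 replicate 2, and that in Prlr+/+ islets was 1 lower when NP replicate 1 or 2 or P9.5 replicate 2 or 3 was left out. Of 14 immune markers, H2-Aa was called higher (0.63) in Prlr-/- islets and Cd74 lower (-0.77) in Prlr+/+ islets, and with 1 array left out the counts were 0 to 2 higher and 0 to 1 lower in Prlr-/- islets (2 higher without NP replicate 2, 0 higher without NP replicate 1 or 3) and 0 to 3 higher and 1 lower in Prlr+/+ islets (3 higher without NP replicate 1). Of 13 stromal markers 0 were called in either genotype, with medians of 0.13 in Prlr-/- and -0.27 in Prlr+/+ islets, and 1 was called lower in Prlr+/+ islets without replicate 3 of either Prlr+/+ group. Between the genotypes, 0 markers of these 4 cell types were called at P9.5 or in NP islets. At P9.5 against NP, the share of all probe sets called was 14.5% in Prlr-/- and 9.93% in Prlr+/+ islets. The part of all these cells in the changes of the factors was not tested.

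**Figure D3:**
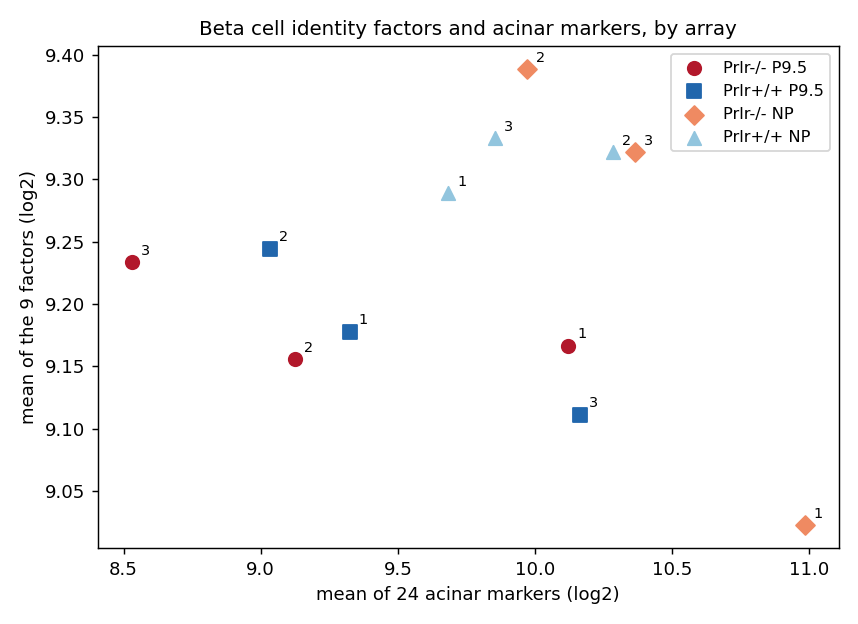
Mean log2 value of the 9 factors (vertical axis) against the mean log2 value of 24 acinar markers (horizontal axis), 1 point for each of the 12 arrays, with the replicate number beside each point. Prlr-/- NP replicate 1 stands at the lower right, with 9.02 for the factors and 10.98 for the acinar markers, while the other 5 NP arrays had 9.29 to 9.39 for the factors, above all 6 P9.5 arrays at 9.11 to 9.24.

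The third comparison, Prlr-/- against Prlr+/+ islets at P9.5, asked whether the factors depended on the receptor during pregnancy. No factor was called (0 of 9, against 0.231% of all probe sets), the unadjusted limma p was under 0.05 for 0 of them, against 5.42% of all probe sets, and the values of the groups overlapped for all 9, where 6.08% of all probe sets had groups apart. Mafa was at 8.2, 8.0 and 7.8 in Prlr-/- islets, against 8.1, 8.2 and 7.7 in Prlr+/+ islets, with a mean of 8.0 in both groups (95% interval of the difference -0.33 to 0.33). Neurod1 averaged 9.90 in both groups (95% interval -0.29 to 0.29). Nkx6-1 averaged 9.23 ± 0.15 in Prlr-/- islets and 9.13 ± 0.15 in Prlr+/+ islets (SD, n = 3 each). The log2 fold changes ran from -0.13 for Pdx1, Nkx2-2 and Isl1 to 0.23 for Rfx6, with adjusted p of 0.977 to 1 in limma. Rfx6 was at 9.7, 9.8 and 10.2 in Prlr-/- islets, against 9.5, 9.6 and 9.9 in Prlr+/+ islets, and it was the only factor whose 95% interval, -0.13 to 0.60, reached beyond the fold change minimum. For the other 8 factors a difference of that size lay outside the interval. Without Prlr+/+ P9.5 replicate 2, fold changes on the log2 scale ran from -0.17 for Isl1 to 0.22 for Foxa2 and 0 factors were called.

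In NP islets the genotypes were compared without pregnancy and without the pellet. No factor was called (0 of 9, against 0.101% of all probe sets). The background was 33 higher and 3 lower probe sets, and 23 and 10 with each array centred on its median. Mafa was at 8.1, 8.4 and 8.4 in Prlr-/- NP islets, against 8.8, 8.6 and 8.6 in Prlr+/+ NP islets, and it was the only one of the 9 whose groups did not overlap, against 11.7% of all probe sets. Its log2 fold change was -0.37 (95% interval -0.70 to -0.04), with an adjusted p of 0.349 in limma, and -0.27 (adjusted p = 0.605) without Prlr-/- NP replicate 1. Mafa was also the only factor with an unadjusted p under 0.05, against 12.3% of all probe sets. Nkx2-2 (-0.30), Nkx6-1 (-0.27) and Isl1 (0.23) had adjusted p of 0.453, 0.464 and 0.469 in limma, and Neurod1 averaged 9.27 in both groups. The median over the acinar markers was 0.57 on the log2 scale here, with 0 of 24 called, and ran from 0.30 without Prlr-/- NP replicate 1 to 0.81 without replicate 2 of that group, and their part in the values of the factors was not tested.

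**Figure D4:**
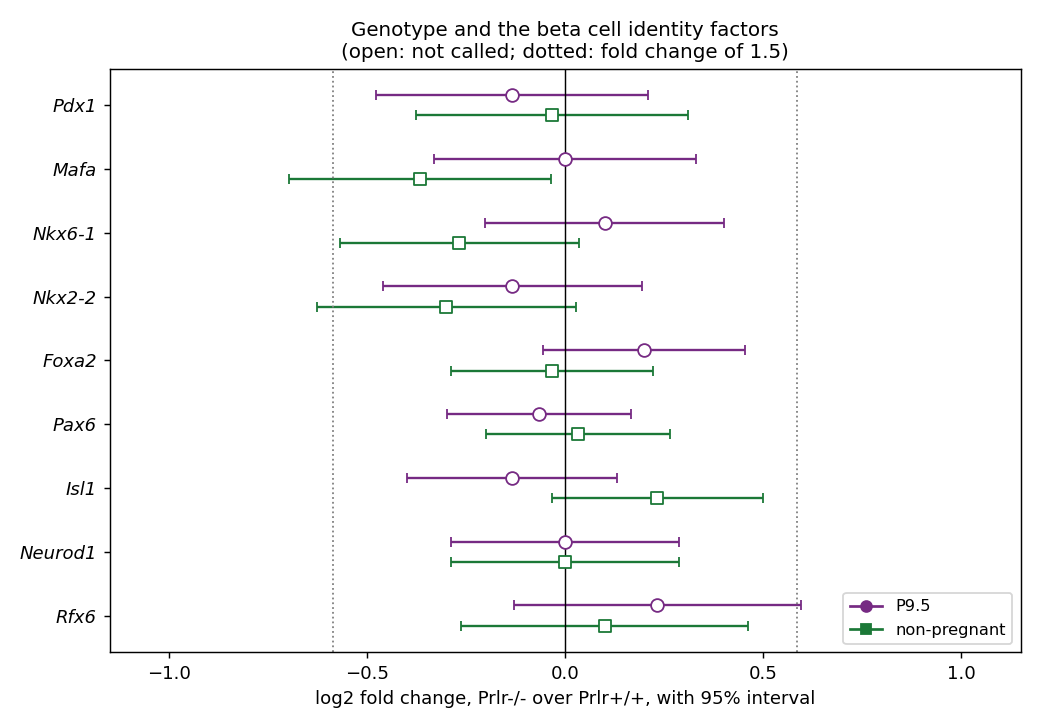
Log2 fold change of each factor in Prlr-/- over Prlr+/+ islets, with 95% intervals from limma, at P9.5 (purple circles) and in non-pregnant mice (green squares); all markers are open because none met the call, and dotted lines mark a fold change of 1.5. At P9.5 the points lie between -0.13 and 0.23, and the point farthest from 0 is Mafa in NP islets at -0.37.

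The order of the 4 group means followed the stage for the factors that were called. These factors were picked by the contrasts of stage, so this order was in part fixed beforehand. Neurod1 had both P9.5 means at 9.90, against both NP means at 9.27. Nkx6-1 averaged 9.23 in Prlr-/- P9.5, 9.13 in Prlr+/+ P9.5, 9.60 in Prlr-/- NP and 9.87 in Prlr+/+ NP islets, and Mafa averaged 8.0, 8.0, 8.3 and 8.67 in the same order. Within a stage, the difference of the genotypes met the call for none of these factors in limma. Pdx1, Rfx6 and Pax6 spanned only 0.20 to 0.23 between their lowest and highest group means. For Pdx1 the SD within Prlr-/- NP islets, 0.38, was larger than that span, with replicate 1 at 9.1 and the other values at 9.8 and 9.7.

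Factors that work beside these 9 in beta cells were described as a list. In Prlr+/+ islets at P9.5, 0 of 22 measured partner factors were called higher and 2 lower, with a median log2 fold change of -0.27, against -0.07 over all genes. The share of all probe sets called at P9.5 against NP was 9.93% in Prlr+/+ and 14.5% in Prlr-/- islets. Mlxipl, the carbohydrate response factor ChREBP, had -0.77 (limma adjusted p = 0.0102) and Tcf7l2, an effector of Wnt signalling, had -0.60 (adjusted p = 0.00112). Etv5 (-0.57), Ldb1 (-0.53), the cofactor that Isl1 binds, and the nuclear receptor Hnf4g (0.53) were under the fold change minimum. The lower count was 4 when Prlr+/+ NP replicate 1 was left out, 1 for replicate 3 of that group and 1 for replicate 1 of the P9.5 group. In Prlr-/- islets 1 partner factor was called higher, Hnf4g at 0.60 (adjusted p = 0.00102), and 1 lower, Glis3, a zinc finger activator of the insulin gene, at -0.80 (adjusted p = 0.00724), with a median of -0.17. Nr4a1 (-0.53), Foxa3 (0.43) and Ldb1 (-0.40) followed without a call. Leaving out Prlr-/- NP replicate 3 gave 0 higher partner factors, and leaving out replicate 2 of the Prlr-/- P9.5 group gave 2 lower ones.

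Over all probe sets, 9.93% were called in Prlr+/+ and 14.5% in Prlr-/- islets at P9.5 against NP. Among 19 measured factors of progenitors and of other pancreatic lineages, 1 was called higher and 1 lower in each genotype. In Prlr+/+ islets the lower one was Sox4, an HMG-box factor of endocrine development, at 7.3 ± 0.2 at P9.5 and 9.0 ± 0.1 in NP islets (SD, n = 3 each), a log2 fold change of -1.70 (limma adjusted p = 0.00071). Sox4 had -0.57 (adjusted p = 0.0722) in Prlr-/- islets, and its interaction was not called. The higher one was Bhlha15, a factor of secretory cells that also marks acinar cells, at 0.77 (adjusted p = 0.0125) in Prlr+/+ and 0.93 (adjusted p = 0.00312) in Prlr-/- islets. In Prlr-/- islets the lower one was Rbpjl, a subunit of an acinar transcription complex, at -0.60 (adjusted p = 0.0259). The list medians were -0.07 in Prlr-/- and -0.13 in Prlr+/+ islets. Of these calls, Bhlha15 in Prlr+/+ islets was lost without Prlr+/+ P9.5 replicate 1 and Rbpjl without Prlr-/- NP replicate 1. In Prlr-/- islets the count was then 2 higher and 0 lower, and 1 higher and 2 lower when replicate 3 of that NP group was left out.

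Genes in a chosen list of beta cell genes downstream of the factors did not move one way. Whether the factors regulate each of them was not tested. In Prlr+/+ islets, 3 of 24 measured genes were called higher at P9.5 and 2 lower, against 5.73% and 4.21% of all probe sets. The median of the 24 genes was -0.02. The higher ones were Pcsk1, the convertase that cuts proinsulin (0.77, limma adjusted p = 0.000739), Ucn3, a peptide of mature beta cells (0.60, adjusted p = 0.0237), and Chgb, a granule protein (0.60, adjusted p = 0.00298). The lower ones were Vdr, the vitamin D receptor (-0.77, adjusted p = 0.00167), and Syt7, a calcium sensor of granule release (-0.63, adjusted p = 0.00251). G6pc2 (0.57), Rgs16 (-0.57) and Abcc8 (-0.50) were not called, and Ins2 averaged 10.8 in both stages. The count of higher genes was 1 without Prlr+/+ P9.5 replicate 1, and that of lower genes was 4 when Prlr+/+ NP replicate 1 was left out, 1 for replicate 2 of that group and 1 for replicate 3 of the P9.5 group.

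In Prlr-/- islets, Ucn3 (0.60, limma adjusted p = 0.0169) and Slc2a1, a glucose transporter (0.60, adjusted p = 0.00434), were called higher and 0 of the 24 lower, with a median of 0.12. Of all probe sets, 7.44% were called higher and 7.09% lower there. Pcsk1 (0.50), Ero1b (0.43) and Ffar1 (0.40) followed without a call. The count was 0 when Prlr-/- NP replicate 1 was left out and 1 for replicate 3 of that group and for replicates 1 and 3 of the Prlr-/- P9.5 group. Between the genotypes at P9.5, Chgb was the only gene called in these lists, at 10.30 ± 0.10 in Prlr-/- islets and 11.07 ± 0.15 in Prlr+/+ islets (SD, n = 3 each), a log2 fold change of -0.77 (limma adjusted p = 0.0111). This call was lost without replicate 1 or 2 of the Prlr-/- P9.5 group and without replicate 1 or 3 of the Prlr+/+ P9.5 group. Etv5 (0.50), Mnx1 (-0.50), Sox4 (0.67) and G6pc2 (-0.43) were not called there.

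Of 20 genes that beta cells usually hold low, Oat, ornithine aminotransferase, was the only one called in either genotype. It was higher at P9.5 by 1.07 on the log2 scale in Prlr-/- islets (limma adjusted p = 0.000332) and by 0.63 in Prlr+/+ islets (adjusted p = 0.00843). In Prlr+/+ islets, the count of higher genes in this list differed from 1 without Prlr+/+ NP replicate 1 (2), replicate 2 (0) or replicate 3 (0), or Prlr+/+ P9.5 replicate 1 (0) or replicate 3 (2). The other 19 did not meet the call, with list medians of -0.12 in Prlr-/- and -0.20 in Prlr+/+ islets. Of all probe sets, 14.5% were called in Prlr-/- and 9.93% in Prlr+/+ islets.

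**Figure D5:**
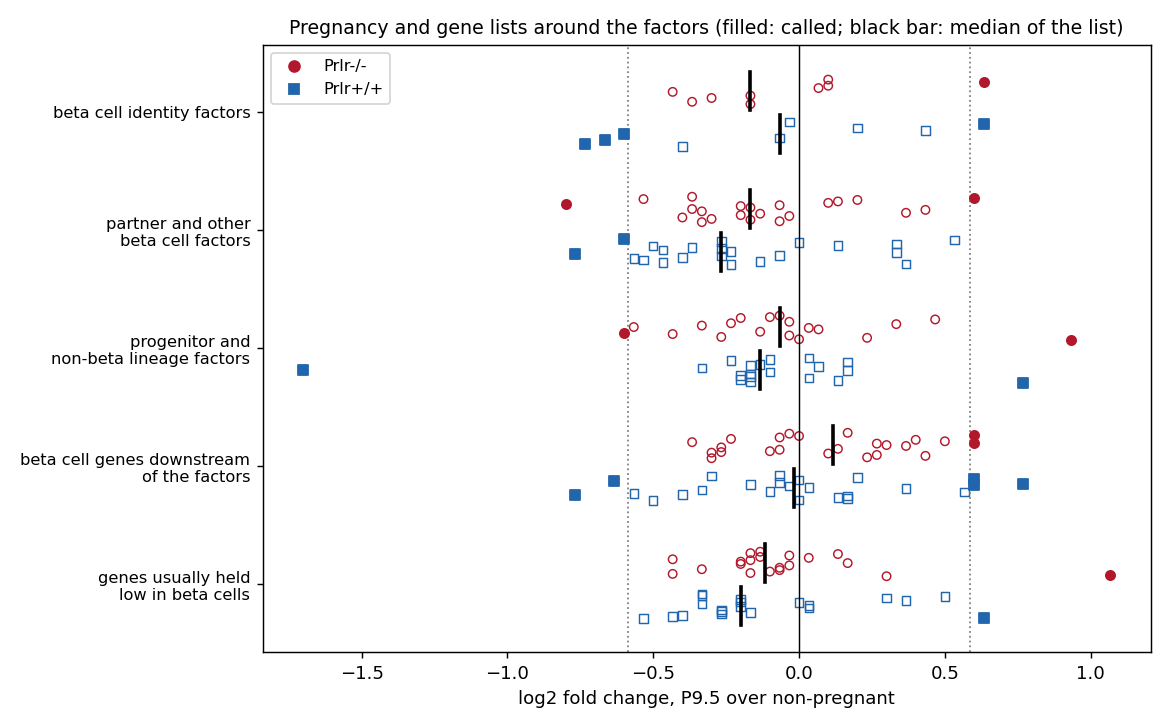
Log2 fold change at P9.5 over NP of each measured gene in the 9 factors and the 4 lists around them, in Prlr-/- (red circles) and Prlr+/+ (blue squares) islets; filled markers met the call, black bars are list medians and dotted lines mark a fold change of 1.5. Most genes lie between the dotted lines, and the point farthest to the left is Sox4 in Prlr+/+ islets at -1.70.

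The genes whose pattern was most like that of a called factor were searched among 2875 genes called in at least 1 comparison, by the mean absolute difference of the 12 log2 values after each gene's own mean was subtracted. The nearest to Neurod1 were Togaram1 (0.05), Eif5 (0.0611) and Tug1 (0.0611). The nearest to Nkx6-1 were Man2b2 (0.0889), Zswim8 (0.0889) and Sgsm1 (0.0917), and those to Mafa were Man2b2 (0.106), Stard10 (0.113) and Cbarp (0.117). The nearest to Nkx2-2 were Hectd4 (0.0778), Gabbr1 (0.0833) and Pcnx3 (0.0833). All these distances are about the size of the rounding step of 0.1 or below it, so their order carries little.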

How the data were processed

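RNA of mouse islets from 12 samples in 4 groups was hybridised to Affymetrix MoGene_1.0_ST arrays. The authors preprocessed the raw arrays by robust multichip analysis in aroma.affymetrix (background correction, quantile normalization of probes, 1 summary per probe set) and deposited log2 expression values for 35511 probe sets, rounded to 0.1, and every value carries that correction and normalization. The genome build behind the probe sets was not given in the sources used here. Of the probe sets, 21789 carry 1 gene symbol, 1621 several and 12101 none in the array annotation. Of those with 1 symbol, 21698 were matched to a current symbol through their Entrez identifier. Where a gene had several probe sets, the one with the highest mean was kept.

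In R 4.3.3 with limma 3.58.1, 1 model of 4 group means was fitted to all probe sets (lmFit, eBayes), and Benjamini-Hochberg adjusted p-values are over all of them. A probe set was called at a fold change of at least 1.5 and an adjusted p under 0.05. An exact permutation test of 3 arrays against 3 cannot give a p under 0.1 and was not used. The members and gene lists were chosen with earlier results of these data known. Named are the 9 members, in each list the called genes and up to 3 more with the largest change, and the 3 genes most like each called member. Motifs were searched on both strands of RefSeq promoter windows. The labels do not state that replicate numbers pair the arrays, so the main model held no block. Same-numbered arrays deviated together (r above 0.1) in 7 of 18 pairs, which does not settle whether they were paired. On simulated data for P9.5 against NP in Prlr+/+ mice (35511 probe sets, 200 changed), a true log2 change of 0.7 was called in 56.5% of them and one of 1 in 80.5%, with 10 and 3 false calls. In the real data, 9.93% of all probe sets were called in that comparison. The adjusted p depends on how many probe sets change, so the simulated shares do not give the power for the factors. Alternatives were a fit limited to the compared groups, a block for replicate number, each array left out in turn, no dim probe sets (lowest 40%), probe sets with 1 symbol, centring on array medians, a further quantile normalization, a prior with an intensity trend, array weights, other fold change minimums, rounding noise and equal probe sets counted once. The search for markers used lists of acinar, ductal, endothelial, stromal, immune and other endocrine cells.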

Additional observations from a re-analysis of the deposited data

How the results depend on the processing

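Of 1116 values of single factors under 25 other settings, 1069 kept their side of the call without a change of sign. Another 18 lost the call, 4 gained it and 25 changed sign, all 25 in factors that were not called. A factor with a change of 0 in the main fit had no sign to change and was counted among the 1069. The count of called factors at P9.5 against NP was 4 in Prlr+/+ islets and 0 at a fold change of at least 2; in Prlr-/- islets it was 1, and 0 with array weights, 0 at a fold change of at least 2, 0 with Prlr-/- NP replicate 1 and Prlr+/+ P9.5 replicate 2 both left out, a setting chosen after the data were seen, and 2 with no fold change minimum. With 1 array left out it ran from 3 to 4 in Prlr+/+ and from 0 to 1 in Prlr-/- islets, and stayed 0 in the genotype comparisons and the interaction. The replicate block left the count at 4 in Prlr+/+ and 1 in Prlr-/- islets. Median centring moved all probe sets by 0.07 in Prlr+/+ and 0.17 in Prlr-/- islets at P9.5 against NP and by -0.10 between the NP genotypes, and Nkx2-2 then lost its call in Prlr+/+ islets (-0.53). Under quantile normalization Neurod1 lost its call in both genotypes (0.48 in Prlr-/- and 0.52 in Prlr+/+ islets), and the 1 factor called in Prlr-/- islets was Nkx2-2, lower (-0.61). The cause was not tested. Sign changes of uncalled factors were, for Prlr-/- against Prlr+/+ NP islets, -0.067 for Pax6 under median centring, 0.025 for Foxa2 under quantile normalization and 0.026 under array weights, 0.079 for Pdx1 under array weights and 0.18 with both arrays left out; for P9.5 against NP, 0.033 for Rfx6 in Prlr+/+ islets under median centring, and in Prlr-/- islets -0.069 for Isl1, -0.061 for Pax6 and -0.053 for Rfx6 under quantile normalization, -0.014 for Pax6 and -0.024 for Rfx6 under array weights and -0.067 for Isl1 with both arrays left out. With 1 array left out, Pax6 ran from -0.13 to 0.017 between the P9.5 genotypes. Between the NP genotypes, Pdx1 ran from -0.17 to 0.18, Pax6 from -0.033 to 0.12, Foxa2 from -0.12 to 0.083 and Rfx6 from -0.05 to 0.20. At P9.5 against NP, Rfx6 ran from -0.05 to 0.20 and Isl1 from -0.067 to 0.13 in Prlr-/- islets, and Rfx6 from -0.18 to 0.067 in Prlr+/+ islets. In the interaction, Pdx1 ran from -0.32 to 0.033 and Rfx6 from -0.017 to 0.28. Over all probe sets, calls moved by more than 1.5 times as follows. In Prlr+/+ islets at P9.5 against NP, 3528 calls became 1898 with 1-symbol probe sets. They became 7745 with no fold change minimum and 998 at a fold change of at least 2. In Prlr-/- islets, 5159 calls became 2513, 11846 and 1493 in the same order. The 1-symbol setting tested 21789 probe sets, not 35511, and its share called was 8.71% against 9.93% in Prlr+/+ islets. In Prlr-/- islets that share was 11.5% against 14.5%. The setting without dim probe sets tested 21371. Between the P9.5 genotypes, 82 calls became 39 with only the groups compared, 41 at a fold change of at least 2, 51 with both arrays left out and 47, 49 and 51 when replicate 1 or 3 of the Prlr-/- or replicate 1 of the Prlr+/+ P9.5 arrays was left out. Between the NP genotypes, 36 became 0 with only the groups compared, 2 with 1-symbol probe sets, 9 with both arrays left out and 172 without Prlr+/+ NP replicate 2. The interaction's 28 became 63 without dim probe sets, 96 with 1-symbol probe sets, 45 under quantile normalization, 81 with array weights and 16 without Prlr-/- P9.5 replicate 3.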
